A study of Mus musculus with 6 samples.

Results

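Genes of pigment cells were examined in whole spleens of Balb/c mice given perfluorooctane sulfonate (PFOS) and of untreated mice. The set held 10 genes, namely Dct, Tyrp1, Pmel, Tyr, Mlana, Slc45a2, Mitf, Oca2, Gpr143 and Mc1r, out of 18193 genes with a probe set of a single symbol. The genes were chosen by symbol after the PFOS minus control difference of Dct in these same arrays was known, and each of their 17 probe sets was kept. Their differences between the groups are therefore a description, printed with no p-value, and support nothing by themselves. Calls given for these genes are a description as well. The PFOS group was 3 mice given 10 mg per kg body weight of PFOS, a persistent fluorinated surfactant, each day for 3 weeks by stomach tube. The control group was 3 mice without treatment. All 6 were labelled as female Balb/c mice of 6 to 8 weeks, with no transgene or deletion, and each spleen was hybridized to 1 Affymetrix Mouse430_2 array. The study asked which spleen transcripts differ after exposure.

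Pigment cells make melanin from tyrosine inside melanosomes, which are organelles related to lysosomes. Tyr carries out the rate-limiting first step, Dct and Tyrp1 are related enzymes of later steps, and Pmel forms the fibres on which the pigment is laid down. Mitf, the master transcription factor of the lineage, binds a motif called the M-box in the promoters of the enzyme genes, and Mc1r is the receptor for melanocyte-stimulating hormone. Balb/c mice are albino because of a mutation that inactivates Tyr, so pigment cells of this strain are present but hold no melanin. Pigment cells have been described in the spleen of dark-coated mice. Mitf is also used by macrophages, osteoclasts and mast cells, and is not a marker of pigment cells alone.

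The deposited values are RMA log2 values, a scale on which 1 unit is a 2-fold difference, and RMA equalizes the distribution of the arrays. Median values of the 6 arrays lay between 6.15 and 6.18. Of the 11 spleen markers with a probe set, each lay above background in both groups, among them Ms4a1 of B cells, Cd3g of T cells and Spic of red pulp macrophages. The label of female sex was not borne out on any of the 6 arrays. Xist, transcribed from the inactive X chromosome, lay between 5.75 and 5.86 in PFOS spleens and between 5.62 and 5.86 in control spleens, under the background level. The Y-linked Eif2s3y lay between 9.76 and 9.91 in PFOS spleens and between 9.62 and 9.70 in control spleens, and Kdm5d and Uty were above background too. Background was read from 79 probe sets of odorant and pheromone receptors, which are little used in spleen. Their 95th percentile was 6.26 in PFOS spleens and 6.23 in control spleens, and a probe set under it in a group is called below background there. Probe sets differ in how well they bind, so this level is a guide and not a detection call. Differences are PFOS minus control on the log2 scale with the standard error (SE) of limma, a linear model fitted over all probe sets of the array. A difference is called when its Benjamini-Hochberg adjusted p over all of these is under 0.05. In a whole spleen, fewer cells of a type and less RNA per cell cannot be told apart.

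The promoters of the related enzyme genes are shown because Dct and Tyrp1 differed together while Tyr was at background. Of the 10 genes, 6 had a promoter window in RefSeq (GRCm38.p6, from the C57BL/6J strain), running from 250 bases before to 50 bases after an annotated transcript start. Capitals mark CATGTG, the core of the M-box, or its reverse CACATG, and each line reads 5′ to 3′ on the strand of the gene.
Dct, chr14:118052197-118052496, minus strand: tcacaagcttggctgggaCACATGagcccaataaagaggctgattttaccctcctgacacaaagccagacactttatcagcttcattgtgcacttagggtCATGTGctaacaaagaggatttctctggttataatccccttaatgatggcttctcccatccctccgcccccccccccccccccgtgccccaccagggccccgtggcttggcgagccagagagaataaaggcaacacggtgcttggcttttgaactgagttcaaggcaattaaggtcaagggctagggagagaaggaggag
Tyrp1, chr4:80833963-80834262, plus strand: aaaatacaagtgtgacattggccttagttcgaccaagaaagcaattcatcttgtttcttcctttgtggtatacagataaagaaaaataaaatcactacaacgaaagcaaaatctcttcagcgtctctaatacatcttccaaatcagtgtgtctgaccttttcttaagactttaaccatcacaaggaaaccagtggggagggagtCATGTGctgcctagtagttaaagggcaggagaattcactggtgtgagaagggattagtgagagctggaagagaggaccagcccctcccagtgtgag
Tyr, chr7:87493463-87493762, minus strand: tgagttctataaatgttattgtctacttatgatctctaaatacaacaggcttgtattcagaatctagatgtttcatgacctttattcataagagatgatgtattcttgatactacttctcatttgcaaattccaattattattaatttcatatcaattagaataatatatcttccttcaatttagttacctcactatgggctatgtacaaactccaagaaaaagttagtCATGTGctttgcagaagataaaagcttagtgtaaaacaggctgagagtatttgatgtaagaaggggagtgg

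Each of these 3 windows held the longer form TCATGTGCT once on the strand of the gene, and 0.408% of all 32851 windows held it on either strand. It began 151 bases before the start of Dct, 47 before that of Tyrp1 and 22 before that of Tyr. The shorter TCATGTG, which lies inside the longer form, was also found in the window of Mc1r and stood in 3.77% of all windows. The core CATGTG was found in 5 of the 6 genes with a window, Oca2 included. It stood in 14.2% of all windows and in 15.9% of all genes with a window. The remaining gene was Mitf, whose 3 windows held none of these motifs. The longer form was settled on after these sequences were read, and a match describes letters only.

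Among the enzymes, Dct and Tyrp1 differed more than Tyr, and each had lower values in every PFOS spleen than in any control spleen. Dct, which rearranges dopachrome, read 6.05, 5.53 and 5.52 in the PFOS spleens, against 9.13, 9.25 and 9.30 in the control spleens. The groups stood far apart, and of the PFOS arrays replicate 1 lay above the other two. The means were 5.70 ± 0.30 in PFOS spleens and 9.23 ± 0.08 in control spleens (SD, n = 3 each), a PFOS minus control difference of -3.53 ± 0.13 (SE), or 11.5-fold lower. Only 26 of the 45037 probe sets of the array that are not controls had a more negative difference. The genes were chosen after this same difference was known, so nothing is read from that rank. The PFOS mean lay below background and the control mean above it, so the size of this fold depends on the background.

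Tyrp1, which stabilizes Tyr and acts late in the synthesis of dark melanin, was represented by 3 probe sets. Its probe set with the largest difference read 3.79, 3.67 and 3.70 in PFOS spleens, against 7.58, 7.78 and 7.68 in control spleens. The 2 groups were separated by several units with little spread inside either, and the difference was -3.96 ± 0.06 (SE), or 15.6-fold lower. The PFOS mean of 3.72 lay below background, so the size of this fold depends on the background too. A second probe set, that of highest mean, read 5.25, 5.06 and 5.35 in PFOS spleens, against 6.79, 6.68 and 6.91 in control spleens. Its difference was -1.57 ± 0.08, or 2.97-fold lower. This one ends in _x_at, a suffix for probe sets whose probes may also match other sequences. The third, below background in both groups, read 4.51, 4.22 and 4.46 in PFOS spleens, against 5.56, 5.49 and 5.60 in control spleens. That difference was -1.15 ± 0.08, or 2.22-fold lower. The 3 probe sets thus had the same sign, and each PFOS mean lay below background.

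Pmel, the fibre protein of the melanosome, showed the same sign with a smaller size. It read 6.39, 6.31 and 6.23 in PFOS spleens, against 7.73, 7.73 and 7.78 in control spleens. No PFOS value came near a control value, and the difference was -1.44 ± 0.05 (SE), or 2.72-fold lower. The PFOS mean of 6.31 ± 0.08 (SD, n = 3) lay close to the background level, while the control mean of 7.75 ± 0.03 lay well over it.

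Tyr, the rate-limiting enzyme, was below background in both groups with each of its 3 probe sets. The probe set with the highest mean read 4.35, 4.29 and 4.30 in PFOS spleens, against 4.62, 4.55 and 4.57 in control spleens. Its groups did not overlap, and the difference was -0.26 ± 0.04 (SE). A second probe set read 3.66, 3.84 and 3.74 in PFOS spleens, against 4.07, 4.11 and 4.30 in control spleens, a difference of -0.41 ± 0.07 (SE). The third read 3.89, 3.91 and 3.81 in PFOS spleens, against 3.90, 3.77 and 3.90 in control spleens, and its groups overlapped. The control values of all 3 lay inside the range of the receptor probe sets.

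**Figure D1:**
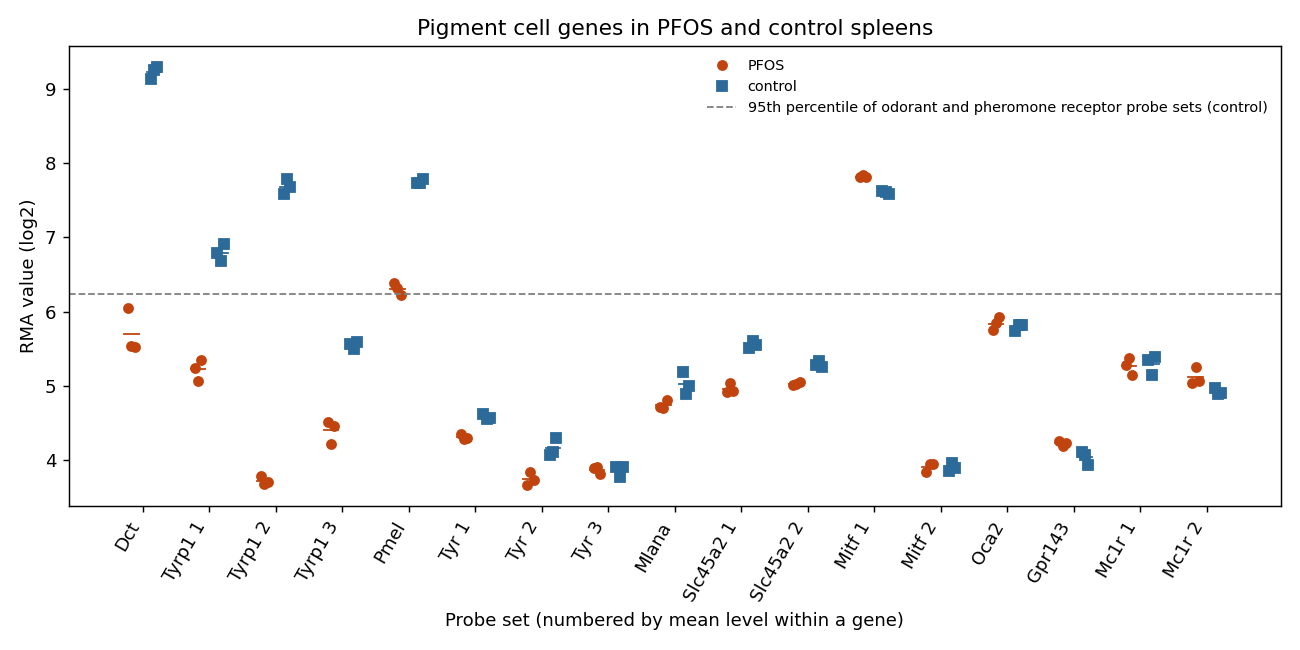
RMA value (log2, vertical axis) of the 17 probe sets of the pigment cell genes on each array, with PFOS spleens as circles on the left and control spleens as squares on the right, and short lines for group means. Dct, the first 2 probe sets of Tyrp1, and Pmel stand apart between the groups and over the dashed background line in control spleens, while most other probe sets lie below that line in both groups.

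Mlana, a melanosome protein that takes part in the maturation of Pmel, and Slc45a2, a transporter needed for melanosome pH, were also lower in PFOS spleens but below background in both groups. Mlana read 4.72, 4.71 and 4.81 in PFOS spleens, against 5.19, 4.89 and 4.99 in control spleens. The highest PFOS value lay close under the lowest control value, and the difference of -0.28 ± 0.07 (SE) lost its call without PFOS replicate 1 or PFOS replicate 2. Slc45a2 read 4.91, 5.04 and 4.93 in PFOS spleens, against 5.51, 5.61 and 5.55 in control spleens with its first probe set, and the groups did not overlap. That difference was -0.59 ± 0.05. Its second probe set read 5.01, 5.02 and 5.04 in PFOS spleens, against 5.28, 5.33 and 5.25 in control spleens, a difference of -0.26 ± 0.03. Oca2, the chloride transport protein of melanosomes, read 5.75, 5.84 and 5.93 in PFOS spleens, against 5.74, 5.82 and 5.82 in control spleens. Its groups overlapped, and the difference of 0.04 ± 0.05 was not called.

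The receptors had no lower call. Mc1r read 5.27, 5.37 and 5.15 in PFOS spleens, against 5.34, 5.15 and 5.39 in control spleens, with overlapping groups. Its second probe set read 5.04, 5.25 and 5.07 in PFOS spleens, against 4.97, 4.89 and 4.91 in control spleens, with no overlap. That difference was 0.20 ± 0.06 (SE), a call lost without control replicate 2 or control replicate 3 and with arrays scaled on ribosomal protein genes. Gpr143, a receptor of the melanosome membrane, read 4.26, 4.19 and 4.23 in PFOS spleens, against 4.11, 4.07 and 3.93 in control spleens. The difference of 0.19 ± 0.05 lost its call with arrays scaled on ribosomal protein genes and without PFOS replicate 1. Both receptors lay below background in both groups.

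With its first probe set Mitf, which macrophages and mast cells also use, differed in sign from Dct and Tyrp1. Its first probe set read 7.81, 7.84 and 7.81 in PFOS spleens, against 7.63, 7.61 and 7.59 in control spleens. Every PFOS value was above every control value, and the difference was 0.21 ± 0.03 (SE), or 1.16-fold higher. Of the 5 probe sets above background in either group, this one alone was higher in PFOS spleens. Its other probe set, below background, read 3.84 to 3.94 in PFOS spleens and 3.85 to 3.96 in control spleens and was not called.

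**Figure D2:**
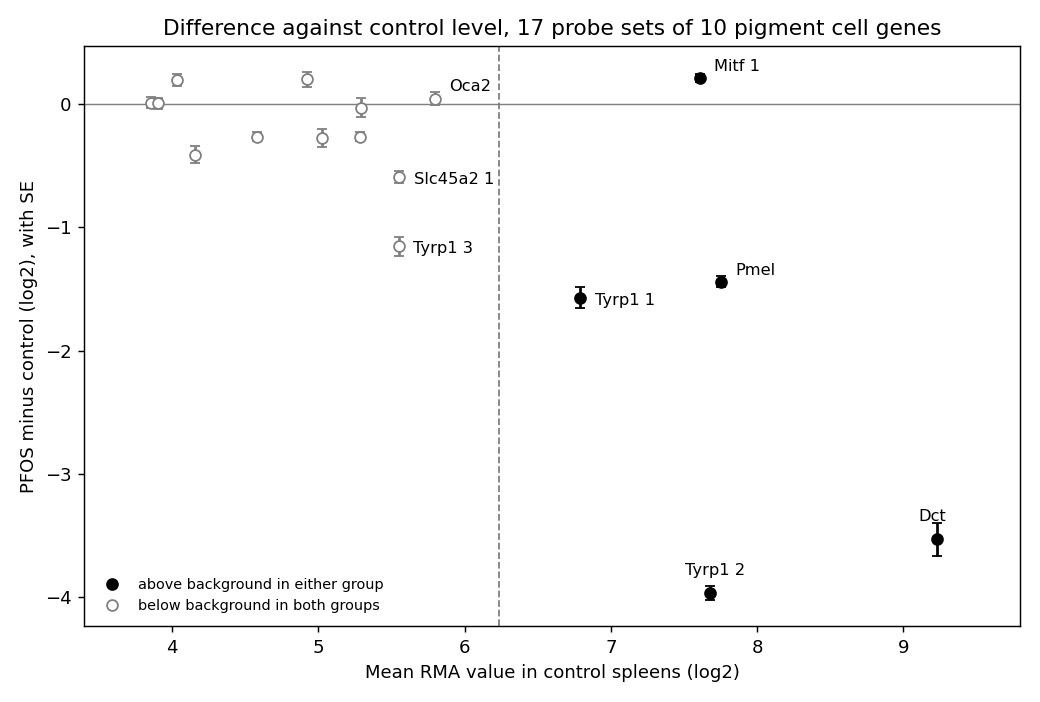
PFOS minus control difference (log2, vertical axis, bars are SE) against the mean RMA value in control spleens (log2, horizontal axis) for the 17 probe sets, with filled points for those above background in either group. Of the 5 filled points, 4 lie at -1.44 or lower and that of Mitf lies at 0.21, and the open points lie between -1.15 and 0.20.

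Over all 17 probe sets, 10 were called lower in PFOS spleens by limma, beside 19.3% of all probe sets of the array. Another 3 were called higher, beside 30.2%, and 4 were not called. For 10 of the 17 the highest PFOS value was under the lowest control value, which held for 22.9% of all probe sets. The difference was at least 2-fold lower for 5 probe sets, of Dct, Tyrp1 and Pmel, beside 1.5% of all probe sets. With arrays scaled on the labelling spikes this held for 3 of them, as Pmel differed by -0.97 and the third probe set of Tyrp1 by -0.68. Since the difference of Dct led to the choice of these genes, nothing is read from these counts. Only 5 probe sets passed background in either group, and 4 of these were lower in PFOS spleens, of which Dct and 2 probe sets of Tyrp1 passed in the control group alone and Pmel passed in both groups. The median difference of the 17 was -0.26, against 0.04 over all probe sets.

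Directions depended on scaling for the weak members. Probe sets for bacterial transcripts that serve as labelling spikes, 27 of them, averaged 5.81 in PFOS spleens and 6.29 in control spleens. Background was 6.26 and 6.23, and whether these averages reflect added transcripts or background signal was not tested. Scaling the arrays on the spike probe sets moved the median difference of all probe sets to 0.52. Dct, Tyrp1 with each of its 3 probe sets, Pmel and the first probe set of Slc45a2 were called lower under that scaling too, whereas Mlana, the second probe set of Slc45a2 and the 2 lower probe sets of Tyr turned to a higher value. Relative to the median of all probe sets, 13 of the 17 lay below it under both scalings. Scaling on the spikes moves every difference and this median by the same amount, so that count could not change and is no check.

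The genes with array profiles most like that of Dct were genes of liver products. The likeness was the Euclidean distance between values centred on each gene's mean over the 6 arrays, among 18183 other genes. The nearest were Apoa2 at a distance of 0.28, Apoc3 at 0.46, Apoa1 at 0.58, Bhmt at 0.65 and Kng1 at 0.66. The first 3 encode apolipoproteins, Bhmt a methyltransferase of liver and kidney, and Kng1 the plasma protein kininogen. With 2 groups this measure picks genes whose PFOS minus control difference has the size of that of Dct. Apoa2 read 5.99, 5.79 and 5.70 in PFOS spleens, against 9.44, 9.44 and 9.45 in control spleens.

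Most liver markers were lower in PFOS spleens together with Dct, Tyrp1 and Pmel. This list and those that follow were chosen with earlier results of these data known, so their counts and p-values are a description. Of 19 measured liver markers, 18 were lower in PFOS spleens (limma), beside 20% of all genes lower and 32.9% higher with 1 probe set per gene. Their median difference was -3.41, and 18 of the 19 had a PFOS mean below background. The sum of their linear values ranged from 719 to 741 in PFOS spleens and from 7887 to 7965 in control spleens. Their mean log2 value was 5.07, 5.12 and 5.12 in PFOS replicates 1 to 3. In control replicates 1 to 3 it was 8.24, 8.22 and 8.23. Albumin (Alb) differed by -5.15 ± 0.04 (SE, limma adjusted p = 1.39e-09), and Apoa1, Apoc3 and Bhmt, next by p, differed by -3.73, -3.41 and -3.67. Of 13 markers of the exocrine pancreas, 11 were lower (limma), with a median of -0.55 and sums of 1063 to 1131 in PFOS spleens and 1760 to 1804 in control spleens. The colipase Clps differed by -1.88 ± 0.11 (limma adjusted p = 9.14e-06), the carboxypeptidase Cpb1 by -1.45, Ctrb1 by -0.69 and Cela1 by -0.55. With arrays scaled on the labelling spikes, 17 liver markers and 4 pancreas markers were called lower. Spleen markers went the other way, with 10 of 11 higher, 0 lower and a median of 0.43, Vcam1 at 0.68, Cd3g at 0.62, Cr2 at 0.60 and Spic at 0.57 having the smallest p. The part of liver or pancreas tissue in the differences of Dct, Tyrp1 and Pmel was not tested.

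Markers of cells that share genes or origin with pigment cells had smaller differences than Dct, Tyrp1 and Pmel. The pigment genes were chosen after the difference of Dct was known, so nothing is read from this contrast. Of 9 Schwann cell markers, 4 were lower and 1 higher in PFOS spleens (limma), beside 20% of all genes lower and 32.9% higher, and differences ran from -0.22 to 0.18. The lower ones were Erbb3 at -0.10, Gfap at -0.12, S100b at -0.22 ± 0.05 (SE, limma adjusted p = 0.0103) and Cdh19 at -0.22 ± 0.06 (0.0154), and Pmp22 was higher at 0.18 ± 0.04 (0.00566). Without any 1 PFOS array, control replicate 2 or control replicate 3, 2 markers were called lower. Their summed level was 1405 to 1422 in PFOS spleens and 1412 to 1430 in control spleens, and 4 of the 9 lay below background in both groups. Mbp, at 9.29 in PFOS spleens and 9.30 in control spleens, weighed most in this sum, which is not a level of Schwann cells. Of 10 mast cell markers, 4 were lower and 1 higher, and 9 lay below background in both groups. The protease Cpa3 had the smallest p, at -0.42 ± 0.05 (limma adjusted p = 0.000473), and Tpsab1, Hdc and Cma1 differed by -0.24, -0.23 and -0.41. The summed level was 636 to 659 in PFOS spleens and 660 to 685 in control spleens. Gata2, at 8.25 in PFOS spleens and 8.16 in control spleens, weighed most in it. With arrays scaled on the labelling spikes, the lower calls of both lists were lost, and 9 Schwann cell and 8 mast cell markers were called higher.

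Of 8 osteoclast markers, which include targets of Mitf, 4 were higher and 0 lower (limma). Over all genes 32.9% were higher and 20% lower, and the counts of the 3 lists given here are not read as particular to them. The osteoclast markers had sums of 2142 to 2255 in PFOS spleens and 2010 to 2060 in control spleens. Most of these sums came from Acp5, at 10.75 in PFOS spleens and 10.65 in control spleens. Ocstamp had the smallest p, at 0.39 ± 0.05 (SE, limma adjusted p = 0.00032), and Dcstamp, Atp6v0d2 and Acp5 differed by 0.17, 0.21 and 0.10. With scaling on ribosomal protein genes, 1 was higher and 1 lower, and without control replicate 1, 2 were higher and 1 lower. Of 7 markers of the retinal pigment epithelium, Rgr, Otx2 and Rlbp1 were higher, by 0.24, 0.19 and 0.16, and 0 were lower. With scaling on ribosomal protein genes 1 was higher and 1 lower. Of the 7, 5 lay below background in both groups, Rpe65 and Rlbp1 included. The sums were 848 to 876 in PFOS spleens and 830 to 849 in control spleens, mostly from Lrat, at 9.18 and 9.13. Of 9 markers of skin keratinocytes, Trp63 was higher by 0.17 and 0 were lower, and 7 lay below background in both groups, Krt14 included. Their sums were 449 to 467 in PFOS spleens and 425 to 446 in control spleens. The part of these cell types in the differences of the pigment genes was not tested.

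**Figure D3:**
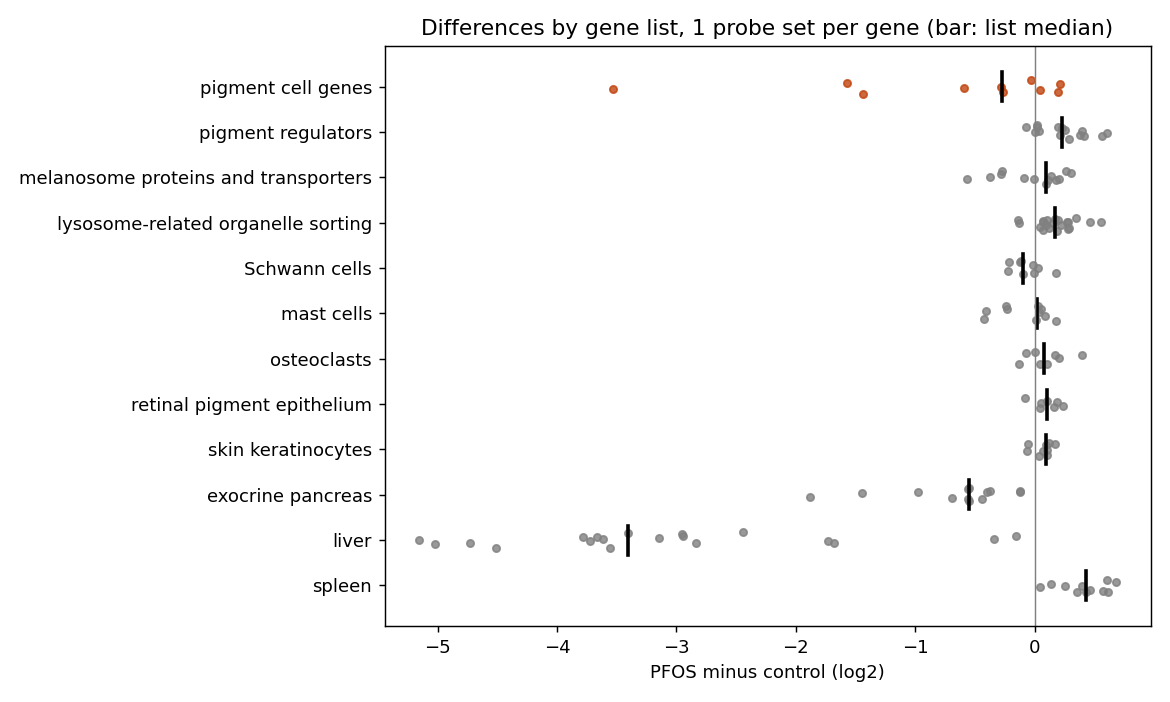
PFOS minus control difference (log2, horizontal axis) of each gene by list, with 1 probe set per gene and a black bar at the list median. In the pigment cell genes at the top, 3 points lie at -1.44 or lower, the liver list is centred on -3.41, and the 3 lists of other pigment pathway genes lie between -0.57 and 0.61.

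Regulators of the pigment lineage other than Mitf had no lower call with 1 probe set per gene. Of 15 measured, 10 were higher, 0 lower and 5 not called by limma, and their shares stand beside the 32.9% higher and 20% lower of all genes. Their median difference was 0.22, against 0.05 over all genes. Spleen markers went the same way, with 10 of 11 higher and a median of 0.43. The part of other spleen cells in the regulators' values was not tested. Of the 10 higher genes, Ednrb, Tfap2a and Irf4 each had another probe set called lower, that of Ednrb at -0.19 ± 0.05 (SE) and below background. Sox10, the neural crest factor that drives Mitf, Dct and Tyrp1, read 7.43, 7.42 and 7.36 in PFOS spleens, against 7.37, 7.43 and 7.35 in control spleens. Its groups overlapped, and the difference was 0.02 ± 0.04 (SE). Kit, the receptor for stem cell factor, differed by 0.00 ± 0.06 and Pax3 by -0.08 ± 0.07, and neither was called. Sox10, Kit and Pax3 were named after their values were seen, as lineage factors outside the rule of smallest p.

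The regulators with the smallest p were Lef1, Tfec, Edn3 and Tfeb. Lef1, a Wnt effector that T cells also use, was higher by 0.56 ± 0.03 (SE, limma adjusted p = 1.1e-05). Tfec and Tfeb, relatives of Mitf, were higher by 0.61 ± 0.04 (1.69e-05) and 0.28 ± 0.03 (limma adjusted p = 0.00025). Edn3, the ligand of Ednrb, was higher by 0.39 ± 0.04 (limma adjusted p = 0.000234), but its 3 other probe sets were not called. The other probe set of Lef1 was not called either.

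Melanosome proteins and transporters outside the 10 genes had calls in both directions. Of 13 measured, 4 were lower, 4 higher and 5 not called (limma), beside 20% of all genes lower and 32.9% higher, and nothing is read from these shares. The median was 0.10, and with arrays scaled on the labelling spikes 11 were higher and 0 lower. Mfsd12, a transporter of lysosomes and melanosomes, was lower. It read 7.29, 7.28 and 7.30 in PFOS spleens, against 7.92, 7.78 and 7.88 in control spleens, a difference of -0.57 ± 0.04 (SE, limma adjusted p = 3.19e-05) with no overlap. The cargo motor Myo5a was higher by 0.27 ± 0.03 (limma adjusted p = 0.000431), the copper pump Atp7a by 0.20 ± 0.03 (0.00182) and the melanosome transfer regulator Mreg by 0.30 ± 0.05 (limma adjusted p = 0.00263). The remaining lower genes were Tpcn2, Gpnmb and Mlph, at -0.28, -0.27 and -0.37, and Mlph lay below background in both groups. Gpnmb, a relative of Pmel that macrophages also make, read 6.09, 6.19 and 6.07 in PFOS spleens, against 6.33, 6.48 and 6.35 in control spleens, and its other probe set was called higher, at 0.12.

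The machinery that sorts cargo to lysosome-related organelles, whose loss causes pale coats and platelet defects, had more higher than lower calls. Of 21 measured genes, 14 were higher, 2 lower and 5 not called (limma), beside 32.9% of all genes higher and 20% lower. With scaling on ribosomal protein genes 11 were higher. The median was 0.17, and all 21 lay above background in both groups. The smallest p belonged to Hps3 at 0.46 ± 0.03 (SE, limma adjusted p = 1.9e-05), Snapin at 0.55 ± 0.04 (2.5e-05), Bloc1s6 at 0.28 ± 0.03 (0.00025) and Vps33a at 0.34 ± 0.04 (limma adjusted p = 0.00027). The other probe set of Snapin and 1 of the 2 others of Bloc1s6 were not called. Among the 14 higher genes, Ap3b1 had another probe set called lower, at -0.21, and Ap3m1 had 2, at -0.11 and -0.23. The lower genes were Ap3s1 at -0.14 and Bloc1s5 at -0.13, and with arrays scaled on the labelling spikes all 21 were higher. These genes serve lysosomes of many spleen cells and are not restricted to pigment cells.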

How the data were processed

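Total RNA of 6 spleens was hybridized to Affymetrix Mouse430_2 arrays. The deposited values are RMA log2 values, per the submitters' processing notes. The RMA version, filters and genome build were not given in the sources used here. Probe sets were named from the platform annotation, and all 17 of the members matched the GRCm38.p6 gene table by identifier. PFOS was compared with control over 45037 non-control probe sets with limma 3.58.1 (lmFit, eBayes) in R 4.3.3. Tests were two-sided, p-values were adjusted over this whole table (Benjamini-Hochberg), and calls were made under 0.05. No filter on low values was applied. For lists, each gene was represented by its probe set of highest mean. The members and lists were chosen with earlier results of these data known. The text names every member, up to 4 called genes of smallest p per list and the 5 profiles nearest to Dct. Per the labels the arrays are biological replicates. The p-values measure the spread between them alone, possibly technical, and their number limits the precision. The procedure was tested on simulated data. Alternatives covered pairing, filter, scaling, variance prior, array weights, probe set choice, background threshold and leaving out each array.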

Additional observations from a re-analysis of the deposited data

How the results depend on the processing

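The differences of Dct, Tyrp1 and Pmel kept their sign and call under every alternative that tested them. This describes processing alone and is no support, as the genes were chosen after the difference of Dct was known. Scaling on the labelling spikes raised the calls over all probe sets to 43457, against 22289 as reported, with 96.4% of them higher, against 61% as reported and 41.8% with scaling on ribosomal protein genes. That scaling adds 1 constant to each array, and it turned Mlana to 0.20, the second probe set of Slc45a2 to 0.21 and the 2 lower probe sets of Tyr to 0.21 and 0.063. Leaving out probe sets under the 40th percentile (5.62) left 6 member probe sets, of which 5 were called, against 13 of 17 without that filter. With the 40th percentile as background, 6 member probe sets passed in either group, against 5. Same-numbered arrays correlated at 0.23, 0.09 and 0.05 in their deviations from the group means and other pairs at -0.15 to 0.07, so the numbers were not used as pairs, and not every array correlated best with its own number. With the replicate number as a block, 22749 probe sets were called, 13 of them member probe sets. Leaving out 1 array at a time gave 11 to 13 called member probe sets. The signal of Tyr, Mlana, Slc45a2, Oca2, Gpr143 and Mc1r was below background in both groups, which limits what is known of their size.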
